A study of Homo sapiens with 14 samples.

Results

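The comparison described here is between cells carrying hairpin sh2 against ADAR1 and cells carrying the control hairpin shNC, and it rests on 4 of the 14 libraries of the series, 2 for sh2 and 2 for shNC. Libraries were chosen by their titles. Both groups were labelled OVCAR3-DDP, that is OVCAR3, a line of high-grade serous ovarian carcinoma, in a derivative resistant to cisplatin (DDP), a platinum drug that cross-links DNA. The hairpins were the only labelled difference, and 2 libraries of a second ADAR1 hairpin, sh1, served as a further comparison. All 3 groups are derivatives of 1 line, hairpin expression was not described further in the labels, and no dose or time of cisplatin was given for them. Nothing in the labels says that the 2 libraries of a group came from separate cultures, and the p-values below therefore reflect the spread between these particular libraries, which may be technical. The study was set up to relate RNA editing, and ADAR1 in particular, to platinum resistance.

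ADAR1, the product of ADAR, deaminates adenosine within RNA duplexes, which leaves inosine, mostly in inverted repeats of untranslated and intronic sequence. RNA that it has not edited can be bound by MDA5 (encoded by IFIH1), which signals through MAVS to interferon regulatory factors and NF-kB, and by PKR (EIF2AK2), which phosphorylates the initiation factor eIF2. Phosphorylated eIF2 favours translation of ATF4, the transcription factor that drives genes of amino acid uptake, amino acid synthesis and tRNA charging. These 3 arms, interferon, NF-kB and ATF4, order the first part of the results.

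The promoters of 5 genes of these arms that were higher in sh2 are given first. They were printed because they held a match, and for a gene with more than 1 promoter the first with a match was taken. No ATF4 core was found for CTH, SESN2 or SLC7A11, higher genes described further on. Each printed sequence runs from 250 bases before to 50 bases after the annotated start from RefSeq (GRCh38.p14), in the direction of transcription. Capitals mark a match on either strand. In ASNS, CHAC1 and ATF3 it is to the core of the composite site of ATF4 and C/EBP factors (TGATGNAA). In IFIH1 it is to the core of the interferon response element (GAAANNGAAA). In CXCL8 it is to a loose pattern for NF-kB sites (GGGANNNNCC), and sites that depart from this pattern are not marked.
ASNS, chr7:97872359-97872658, minus strand: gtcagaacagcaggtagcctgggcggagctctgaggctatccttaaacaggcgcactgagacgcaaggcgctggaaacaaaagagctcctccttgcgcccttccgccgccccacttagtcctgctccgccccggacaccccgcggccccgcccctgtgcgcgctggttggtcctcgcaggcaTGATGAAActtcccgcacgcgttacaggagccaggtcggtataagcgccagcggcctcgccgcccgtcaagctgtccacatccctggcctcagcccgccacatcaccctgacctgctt
CHAC1, chr15:40953221-40953520, plus strand: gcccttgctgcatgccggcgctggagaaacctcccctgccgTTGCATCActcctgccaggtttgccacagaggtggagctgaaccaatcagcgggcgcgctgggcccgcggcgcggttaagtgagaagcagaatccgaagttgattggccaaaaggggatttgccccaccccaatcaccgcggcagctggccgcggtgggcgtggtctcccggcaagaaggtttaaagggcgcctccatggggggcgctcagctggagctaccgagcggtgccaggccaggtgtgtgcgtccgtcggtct
ATF3, chr1:212565157-212565456, plus strand: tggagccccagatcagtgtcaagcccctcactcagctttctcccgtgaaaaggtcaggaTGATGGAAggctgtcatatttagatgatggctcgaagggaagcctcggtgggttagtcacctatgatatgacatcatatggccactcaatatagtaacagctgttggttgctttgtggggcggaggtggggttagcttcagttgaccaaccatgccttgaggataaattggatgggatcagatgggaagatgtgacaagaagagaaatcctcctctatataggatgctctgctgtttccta
IFIH1, chr2:162318635-162318934, minus strand: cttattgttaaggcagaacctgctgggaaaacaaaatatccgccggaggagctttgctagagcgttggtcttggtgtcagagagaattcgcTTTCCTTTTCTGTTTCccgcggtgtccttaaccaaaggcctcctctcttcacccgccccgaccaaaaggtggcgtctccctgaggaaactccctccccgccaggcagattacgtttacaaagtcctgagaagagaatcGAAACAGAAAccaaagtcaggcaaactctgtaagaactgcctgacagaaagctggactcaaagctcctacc
CXCL8, chr4:73740319-73740618, plus strand: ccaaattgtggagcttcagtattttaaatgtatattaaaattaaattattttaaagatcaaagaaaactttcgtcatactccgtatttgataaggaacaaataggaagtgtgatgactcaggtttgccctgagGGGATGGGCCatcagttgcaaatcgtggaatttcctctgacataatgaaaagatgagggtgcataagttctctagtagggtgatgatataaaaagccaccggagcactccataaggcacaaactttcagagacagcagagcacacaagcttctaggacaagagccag
Positions of the first matched base, counted from the start, were -68 in ASNS, -209 in CHAC1, -191 in ATF3 and -117 in CXCL8, and the first of the 3 matches in IFIH1 lay at -159. The ATF4 core occurred in 3.62% of 35116 promoters of this length, the interferon core in 3.57% and the NF-kB pattern, which is short and degenerate, in 25.6%. In the ATF4 list described further on, 10 of 27 promoters of members higher in sh2 held the ATF4 core, 0 of 4 promoters of members lower in sh2 and 4 of 28 promoters of members not called. In the list of interferon-stimulated effectors, 8 of 13 promoters of higher members, 4 of 7 of lower members and 19 of 27 of members not called held the interferon core. In the NF-kB list the pattern was in 9 of 14 promoters of higher members and 15 of 23 of members not called. Over promoters of all genes tested the ATF4 core, interferon core and NF-kB pattern were in 2.07%, 2.89% and 30.75%. For all genes higher in sh2 the shares were 3.77%, 4.03% and 27.9%, and for all genes lower 0.996%, 2.06% and 37.4%. A match is a description of the letters and not of bound factor, and some genes have more than 1 promoter in these counts.

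Reads assigned to genes numbered 20428538 and 23628936 in the sh2 libraries, 23746370 and 21244015 in the sh1 libraries, and 23697078 and 22987515 in the shNC libraries. All levels below are in CPM, which scales a library's counts to 1000000 assigned reads. KRT7 and CD44, an epithelial keratin and an adhesion receptor of this line, stood at 1046 and 1013 CPM and at 807 and 783 CPM in sh2, and at 965 and 1048 CPM and 873 and 902 CPM in shNC. In the 2 libraries labelled OVCAR3-DDP that carried no hairpin, KRT7 was at 0.376 and 0.116 CPM and CD44 at 0, whereas the parental OVCAR3 libraries held 1135 and 1030 CPM and 575 and 553 CPM. For these genes the hairpin libraries therefore stood with the parental OVCAR3 libraries and apart from the untransduced libraries that share their label, which enter no comparison here. Defining markers of other cell types were near 0: 7 leukocyte markers summed to 1.86 and 2.92 CPM in sh2 and to 1.98 and 1.96 CPM in shNC, with 3 and 2 of them at 0, and 5 endothelial markers summed to at most 0.762 CPM in any of these 4 libraries. The 7 fibroblast markers summed to 106 CPM in each sh2 library, and to 109 and 108 CPM in shNC. None of the tested members of these 3 lists was called.

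ADAR, the targeted gene (chromosome 1, 154582057 to 154628013, minus strand, GRCh38), was at 116 and 114 CPM in sh2, and at 447 and 399 CPM in shNC. The groups did not overlap, which was true of 62.8% of all genes tested and of every gene called by the test below. The level in sh2 was 115 ± 0.989 CPM against 423 ± 34.1 CPM in shNC (SD, n = 2 each). The log2 fold change was -1.99 (SE 0.11, edgeR adjusted p = 2.07e-09), a ratio of 0.253. Here and below, a log2 change is sh2 over shNC unless sh1 is named, "called" means an adjusted p under 0.05 from edgeR's quasi-likelihood test with Benjamini-Hochberg adjustment over 19044 genes, and "rose", "higher", "fell" and "lower" are used of called genes. With sh1 the level was 289 and 254 CPM, between the other groups, and sh2 was below sh1 by a log2 change of -1.27 (edgeR adjusted p = 5.86e-06). In bulk RNA, fewer cells of a kind and less RNA per cell cannot be told apart, which holds for this and all later values. The gene lists below were chosen with earlier results of these data known, so counts of their members describe the lists and are no test of them. Over all genes tested 7.23% were higher and 7.04% lower (14.3% in either direction). When the libraries in a fit change, the number called over all genes changes too. List counts from such fits are to be read beside that number, which is given further on.

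**Figure D1:**
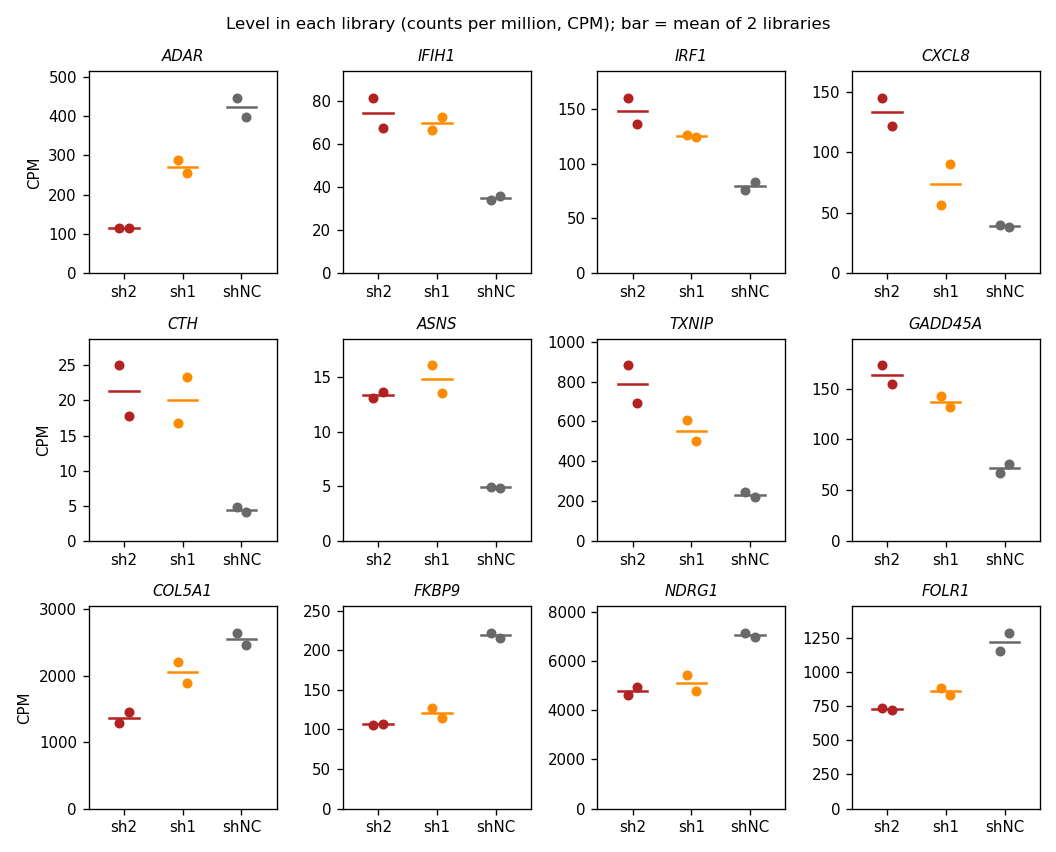
CPM of 12 genes on the vertical axes, one point per library, for sh2, sh1 and shNC, with a bar at the mean of 2 libraries. ADAR stands at 116 and 114 CPM in sh2 against 447 and 399 CPM in shNC. In each of the other 11 genes the sh2 and shNC points do not overlap, which holds for all called genes and for 62.8% of all genes tested.

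ADAR was the only one of 5 tested editing enzymes called in the fit of the 6 libraries. ADARB1, which encodes ADAR2, was at 91.0 and 100 CPM in sh2 and 113 and 103 CPM in shNC (log2 change -0.29, SE 0.12, edgeR adjusted p = 0.119), and was called lower without sh1 library 1 or 2 in the fit (edgeR adjusted p = 0.00394 and 0.00496). ADAT1 and ADAT2, which edit tRNA, had log2 changes of 0.03 and 0.04. Of 22 tested transcripts known as editing substrates, 5 were higher and 4 lower, while 7.23% and 7.04% of all genes tested were (14.3% in either direction). Among them AZIN1, the antizyme inhibitor whose protein is recoded by ADAR1, was at 128 and 104 CPM in sh2 and 75.4 and 70.9 CPM in shNC (log2 change 0.55, SE 0.14, edgeR adjusted p = 0.013). FLNA, encoding filamin A, was at 3100 and 3490 CPM in sh2 and 4898 and 4564 CPM in shNC (log2 change -0.63, SE 0.12). COPA, a recoded coatomer subunit, had a log2 change of 0.12 (edgeR adjusted p = 0.463). The call of AZIN1 was lost without sh2 library 1, shNC library 1 or shNC library 2 (edgeR adjusted p = 0.29, 0.073 and 0.116), and that of FLNA without sh2 library 1 (0.0506). The counts of 5 and 4 became 0 and 0, 3 and 2, 0 and 1, and 1 and 2 without sh2 library 1, sh2 library 2, shNC library 1 and shNC library 2, and 8 and 6 without either sh1 library.

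Across the 19044 genes, 2717 were called (14.3%), of which 1376 were higher (7.23%) and 1341 lower (7.04%) in sh2. The changes were mostly modest: the median log2 change was 0.62 among the higher genes and -0.57 among the lower, and 266 genes (1.4%) changed at least 2-fold, 144 higher (0.756%) and 122 lower (0.641%). An unadjusted p under 0.05 was found for 29.2% of genes. The median over all genes tested was 0.004. In all 2717 called genes the sh2 and shNC libraries did not overlap, which was true of 62.8% of all genes tested. Long noncoding genes were called less evenly than coding ones, with 2.24% higher and 4.49% lower against 9.54% and 8.34% of coding genes. Genes over 100 CPM had 5.59% higher and 19.8% lower. The fits named next tested 18480 to 20140 genes, and list counts from them elsewhere are to be read beside the numbers that follow. The number called depends on the sh1 libraries that share the fit: fitted on the sh2 and shNC libraries alone, 5874 genes were called, and without sh1 library 1 or sh1 library 2 the numbers were 5859 and 5834. With 1 library left in a group and assumed to vary like the others, 303 genes were called without sh2 library 1, 1386 without sh2 library 2, 680 without shNC library 1 and 716 without shNC library 2.

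**Figure D2:**
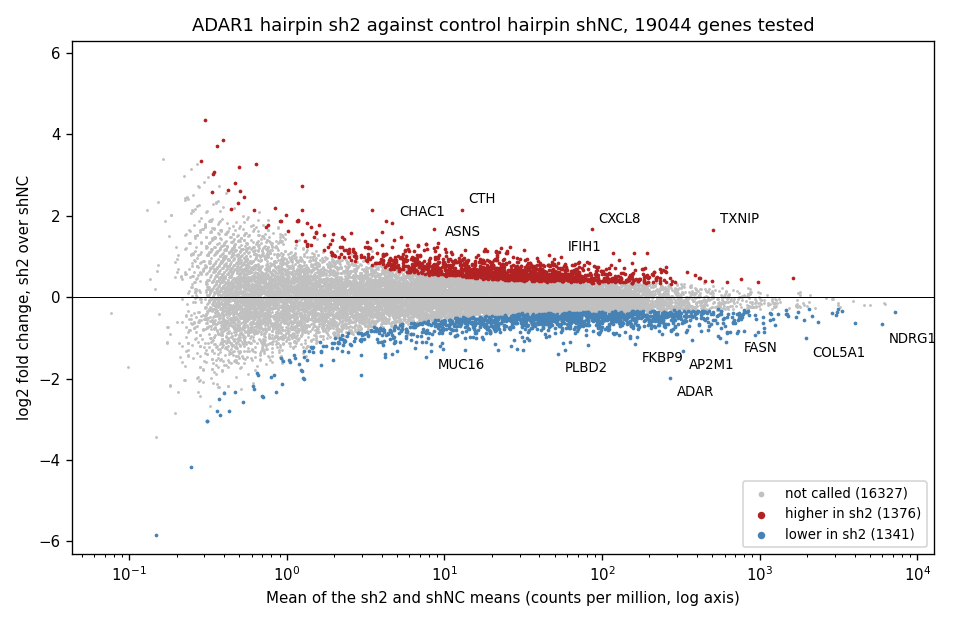
Each point is 1 of 19044 genes, with the mean level of the sh2 and shNC libraries in CPM on a log axis and the log2 change of sh2 over shNC on the vertical axis. Red points are the 1376 genes higher in sh2, blue the 1341 lower and grey those not called, and ADAR at -1.99 lies far from other genes of its level.

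The direction of change followed base composition. With genes in 10 equal groups by the GC content of their exons, the lowest group (26.0% to 38.7%) had a median log2 change of 0.33, and 23.3% of genes were higher and 0.383% lower in sh2. In the highest group (61.8% to 85.5%), the median was -0.29, and 0.547% of genes were higher and 20.8% lower. The 2 sh1 libraries differed from each other along the same axis by a median of -0.40 in the lowest group and 0.29 in the highest, the 2 sh2 libraries by 0.09 and -0.11, and the 2 shNC libraries by -0.003 and -0.016. A difference in base composition thus also appears between libraries of 1 group. Its part in the results was not tested beyond a second fit, chosen after seeing the data, in which each library's trend with GC content was removed: 3040 genes were then called, 1390 higher and 1650 lower, and counts from it are given beside most lists below. In that fit 190 genes were called with a change of at least 2-fold.

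**Figure D3:**
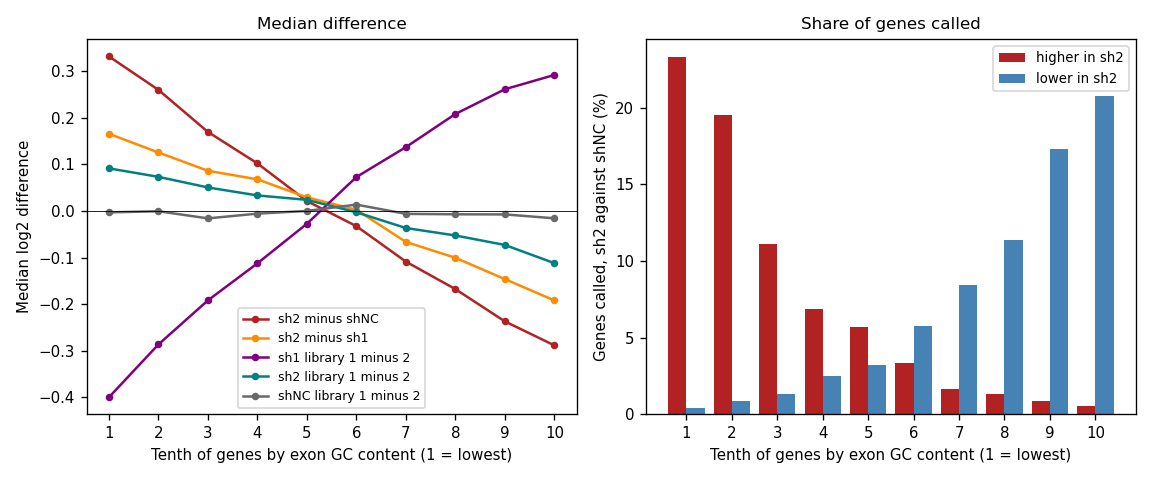
Genes are divided into 10 equal groups by exon GC content along both horizontal axes. The left panel plots median log2 differences between groups and between libraries of 1 group, falling from 0.33 to -0.29 for sh2 minus shNC, and the right panel the percentage of genes called higher and lower in sh2.

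Among genes of double-stranded RNA sensing, IFIH1 was the called member whose call held without each library in turn. IFIH1, which encodes the sensor MDA5, was at 81.6 and 67.5 CPM in sh2 and 34.2 and 36.0 CPM in shNC (log2 change 0.98, SE 0.13, edgeR adjusted p = 0.000164). EIF2AK2, encoding PKR, was at 153 and 135 CPM in sh2 and 97.5 and 94.2 CPM in shNC (log2 change 0.49, SE 0.14, edgeR adjusted p = 0.0217). DHX58, encoding the regulator LGP2, was at 7.10 and 8.13 CPM in sh2 and 5.19 and 3.96 CPM in shNC (log2 change 0.63, SE 0.20, edgeR adjusted p = 0.0445). MAVS, the adaptor on which MDA5 acts, was the only member of this list that fell, at 78.7 and 83.6 CPM in sh2 against 119 and 111 CPM in shNC (log2 change -0.61, SE 0.12, edgeR adjusted p = 0.00229). In all, 3 of 18 tested members were higher and 1 lower, against 7.23% and 7.04% of all genes, and the list's median was 0.15. The call of MAVS was lost without sh2 library 1 or shNC library 1 (edgeR adjusted p = 0.0953 and 0.0545), that of EIF2AK2 without sh2 library 1, shNC library 1 or shNC library 2 (0.29, 0.123 and 0.148) and after removal of the GC trend (log2 change 0.20, 0.0895), and that of DHX58 without any 1 of the 4 libraries (0.0897 to 0.378). DHX58 also missed the threshold with upper-quartile scaling, no filter on low counts, DESeq2, limma-voom or a fit of all 14 libraries (adjusted p = 0.0537 to 0.0813). The counts of 3 and 1 were 1 and 0, 2 and 1, 1 and 0, and 1 and 1 without sh2 library 1, sh2 library 2, shNC library 1 and shNC library 2, and 7 and 3 without either sh1 library.

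Few interferon and signalling genes were called, and the called effectors went both ways, more of them higher. IRF1, an interferon regulatory factor, was at 160 and 136 CPM in sh2 and 76.0 and 83.2 CPM in shNC (log2 change 0.79, SE 0.12, edgeR adjusted p = 0.000507). IFNL1, a type III interferon, was at 13.9 and 10.4 CPM in sh2 and 5.66 and 5.74 CPM in shNC (log2 change 0.98, SE 0.21, edgeR adjusted p = 0.00545). These were the 2 called members among 18 tested interferons, receptors and signalling genes (11.1%, against 14.3% of all genes tested), where 6 were higher and 2 lower without either sh1 library. Of 43 tested interferon-stimulated effectors, 12 were higher and 6 lower (41.9% called), with a median of 0.16. SAMD9, an antiviral restriction factor, was at 119 and 111 CPM in sh2 and 65.9 and 59.2 CPM in shNC (log2 change 0.77, SE 0.14, edgeR adjusted p = 0.0016). Its paralogue SAMD9L was at 16.01 and 16.1 CPM in sh2 and 8.69 and 7.57 CPM in shNC (log2 change 0.88, SE 0.18). SP110, a nuclear body protein, HERC6, an E3 ligase of the HERC family, and USP18, the protease that removes ISG15, had log2 changes of 1.06, 0.81 and 0.82 at levels of 5.78 to 20.4 CPM in sh2 and 2.57 to 10.5 CPM in shNC. The 6 lower effectors were RNF213, HELZ2, LGALS3BP, BST2, IFITM1 and IFITM3, named after their values were seen, with log2 changes of -0.46 to -0.57. Effectors at high levels were among those not called: ISG15, the ubiquitin-like modifier, was at 949 and 946 CPM in sh2 and 922 and 965 CPM in shNC (log2 change -0.10, edgeR adjusted p = 0.539, but 0.21 and called higher with offsets for GC content and length, edgeR adjusted p = 0.0326), and OASL was at 327 and 313 CPM in sh2 and 284 and 275 CPM in shNC (0.09, 0.622).

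The calls of IRF1 and SAMD9 held without each library in turn. IFNL1 was not called without sh2 library 1 (edgeR adjusted p = 0.121), SAMD9L and USP18 not without shNC library 2 (0.0573 and 0.135), SP110 not without shNC library 1 (0.0618), and HERC6 not without sh2 library 1 or shNC library 1 (0.0654 and 0.0522). The effector counts of 12 and 6 were 5 and 0 without sh2 library 1, 10 and 3 without sh2 library 2, 6 and 3 without shNC library 1, 5 and 1 without shNC library 2, and 17 and 11 without either sh1 library. After removal of the GC trend they were 10 and 7. In that fit 4 signalling genes were higher and 1 lower.

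Antigen presentation by MHC class I, which interferon also drives, had few higher members. Of 18 tested members 1 was higher and 4 lower (27.8% called, against 14.3% of all genes tested), with a median of -0.23. B2M, the light chain, was at 1114 and 1027 CPM in sh2 and 971 and 1121 CPM in shNC, so the groups overlapped (log2 change -0.07, edgeR adjusted p = 0.696). After removal of the GC trend it was called lower (-0.31, edgeR adjusted p = 0.00854). ERAP2, a peptidase that trims peptides for class I, was the member that rose, at 6.32 and 4.36 CPM in sh2 and 2.24 and 2.87 CPM in shNC (log2 change 0.95, SE 0.26, edgeR adjusted p = 0.0185). Its call was lost without sh2 library 1 or shNC library 1 (0.29 and 0.175), and the counts of 1 and 4 ranged from 0 and 0 without sh2 library 1, through 0 and 1 without shNC library 1 and 1 and 1 without sh2 library 2 or shNC library 2, to 1 and 10 without either sh1 library.

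Among NF-kB targets and inflammatory cytokines, a list chosen with earlier results of these data known, 11 of 30 tested members were higher and 1 lower. Over all genes the shares were 7.23% and 7.04%, and the list's median was 0.40. CXCL8 (chromosome 4, 73740506 to 73743716, plus strand), encoding the neutrophil attractant interleukin 8, was at 145 and 122 CPM in sh2 and 40.0 and 38.0 CPM in shNC, 133 ± 16.4 against 39.0 ± 1.40 CPM (SD, n = 2 each). Its log2 change was 1.67 (SE 0.17, edgeR adjusted p = 7.21e-06), and it was 1.25 after removal of the GC trend. IL1A, encoding interleukin 1 alpha, was at 8.91 and 6.98 CPM in sh2 and 3.12 and 2.13 CPM in shNC (log2 change 1.49, SE 0.24, edgeR adjusted p = 0.00072). BIRC3, an inhibitor of apoptosis that NF-kB induces, was at 245 and 197 CPM in sh2 and 94.8 and 98.1 CPM in shNC (log2 change 1.09, SE 0.15, edgeR adjusted p = 0.000179). The groups did not overlap for these 3 genes, as for every called gene. IL6 was at 7.34 and 5.92 CPM in sh2 and 2.19 and 3.96 CPM in shNC (log2 change 1.00, SE 0.27, edgeR adjusted p = 0.0172). The chemokine CCL20 had 33 counts over the sh2 libraries and 2 over the shNC libraries, a ratio of CPM of 17.5 with a 95% exact interval of 4.47 to 150 that covers counting error only.

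Other NF-kB genes were not called. The antioxidant enzyme gene SOD2 was at 393 and 381 CPM in sh2 and 384 and 380 CPM in shNC (log2 change -0.09, edgeR adjusted p = 0.624). TNIP1, which encodes a partner of the NF-kB inhibitor A20, had a log2 change of 0.01, but was called higher after removal of the GC trend (0.24, edgeR adjusted p = 0.0327). RELA, encoding the p65 subunit, had a log2 change of -0.30 (edgeR adjusted p = 0.0685) and was called lower in the fit of the sh2 and shNC libraries alone (edgeR adjusted p = 0.000867). The calls of CXCL8, IL1A and BIRC3 held without each library in turn. That of IL6 was lost without sh2 library 1 or shNC library 1 (edgeR adjusted p = 0.16 and 0.253), and that of CCL20 without sh2 library 1, sh2 library 2 or shNC library 2 (0.0854, 0.0685 and 0.165). The counts of 11 and 1 were 4 and 0 without sh2 library 1, 8 and 1 without sh2 library 2, 6 and 0 without either shNC library, and 15 and 2 without either sh1 library. After removal of the GC trend they were 14 and 1. Immediate early genes, which respond to handling as well as to signals, had 5 of 20 tested members higher and 1 lower, and 11 and 0 after removal of the GC trend, and their summed level was 4854 and 4912 CPM in sh2 and 4315 and 4412 CPM in shNC. Their part in the result was not tested.

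Genes of the ATF4 and amino acid response rose most often among the lists, with 20 of 45 tested members higher and 3 lower and a median of 0.34. In all 51.1% were called, against 14.3% of all genes tested. CTH (chromosome 1, 70411218 to 70439851, plus strand) encodes cystathionine gamma-lyase, which makes cysteine from cystathionine. It was at 25.01 and 17.8 CPM in sh2 and 4.77 and 4.13 CPM in shNC, 21.4 ± 5.12 against 4.45 ± 0.45 CPM (SD, n = 2 each), a log2 change of 2.15 (SE 0.21, edgeR adjusted p = 5.18e-06). CHAC1, whose enzyme degrades glutathione, was at 8.86 and 5.92 CPM in sh2 and 1.52 and 2.35 CPM in shNC (log2 change 1.82, SE 0.27, edgeR adjusted p = 0.000301). ASNS, asparagine synthetase, was at 13.1 and 13.6 CPM in sh2 and 4.98 and 4.83 CPM in shNC (log2 change 1.34, SE 0.18, edgeR adjusted p = 0.000164). In all 3 genes every sh2 library was above every shNC library, as in every gene called higher. SESN2, a leucine sensor that restrains mTORC1, was at 15.03 and 12.9 CPM in sh2 and 6.54 and 6.35 CPM in shNC (log2 change 1.01, SE 0.18). ATF3, a stress-induced transcription factor, was at 183 and 163 CPM in sh2 and 85.2 and 84.5 CPM in shNC (log2 change 0.92, SE 0.12, edgeR adjusted p = 9.57e-05). SLC7A11, the cystine transporter, was at 44.4 and 42.0 CPM in sh2 and 22.9 and 19.7 CPM in shNC (log2 change 0.92, SE 0.17).

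The other higher members of the ATF4 list, which a count of this size leaves to be named after their values were seen, included 6 aminoacyl-tRNA synthetases (AARS1, GARS1, MARS1, SARS1, TARS1 and YARS1), the serine synthesis enzymes PSAT1 and PSPH, and the transporters SLC1A4, SLC1A5 and SLC38A2. The 3 lower members were SLC7A5, STC2 and CEBPB. Some abundant members were not called: PPP1R15A, which directs eIF2 dephosphorylation, was at 387 and 396 CPM in sh2 and 391 and 414 CPM in shNC (log2 change -0.15, edgeR adjusted p = 0.38), and DDIT4, an mTORC1 inhibitor, was at 1891 and 1968 CPM in sh2 and 2036 and 2156 CPM in shNC (-0.23, 0.119). SLC3A2, the shared heavy chain of amino acid transporters, had a log2 change of 0.10 (edgeR adjusted p = 0.565), and was called higher after removal of the GC trend (0.29, edgeR adjusted p = 0.00941). DDIT4 was called lower in the fit of the sh2 and shNC libraries alone (edgeR adjusted p = 0.00793). The 6 genes CTH, CHAC1, ASNS, SESN2, ATF3 and SLC7A11 were called without each library in turn and after removal of the GC trend, where their log2 changes were 2.00, 2.11, 1.29, 1.24, 0.87 and 0.54. The counts of 20 and 3 were 7 and 0 without sh2 library 1, 15 and 0 without sh2 library 2, 10 and 0 without shNC library 1, 10 and 1 without shNC library 2, and 28 and 5 or 27 and 5 without sh1 library 1 or 2. Removal of the GC trend gave 26 and 3, for members with a median exon GC content of 51.7% against 48.9% over all genes tested.

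Chaperones of the unfolded protein response, a stress pathway that reaches eIF2 through the kinase PERK, were mostly lower among the few that were called. Of 24 members 1 was higher and 7 were lower (33.3% called, against 14.3% of all genes tested), with a median of -0.17. XBP1, the transcription factor spliced by IRE1, was at 207 and 186 CPM in sh2 and 131 and 136 CPM in shNC (log2 change 0.45, SE 0.11, edgeR adjusted p = 0.011). HYOU1, a chaperone of the endoplasmic reticulum, was at 195 and 205 CPM in sh2 and 278 and 268 CPM in shNC (log2 change -0.55, SE 0.11, edgeR adjusted p = 0.00337), and the lectin chaperone gene CALR was at 956 and 1020 CPM in sh2 and 1326 and 1380 CPM in shNC (-0.56, SE 0.10, edgeR adjusted p = 0.00156). HSPA5, encoding BiP, was at 6194 and 6107 CPM in sh2 and 6133 and 6645 CPM in shNC (log2 change -0.16, edgeR adjusted p = 0.209), and was called lower after removal of the GC trend (-0.24, edgeR adjusted p = 0.019). XBP1 was not called without sh2 library 1 or either shNC library (edgeR adjusted p = 0.273, 0.169 and 0.0879), and HYOU1 and CALR were not called without sh2 library 1 (0.11 and 0.074). The counts of 1 and 7 were 0 and 0 without sh2 library 1, 1 and 3 without sh2 library 2, 0 and 2 without either shNC library, and 4 and 12 without either sh1 library. They were 2 and 11 after removal of the GC trend.

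**Figure D4:**
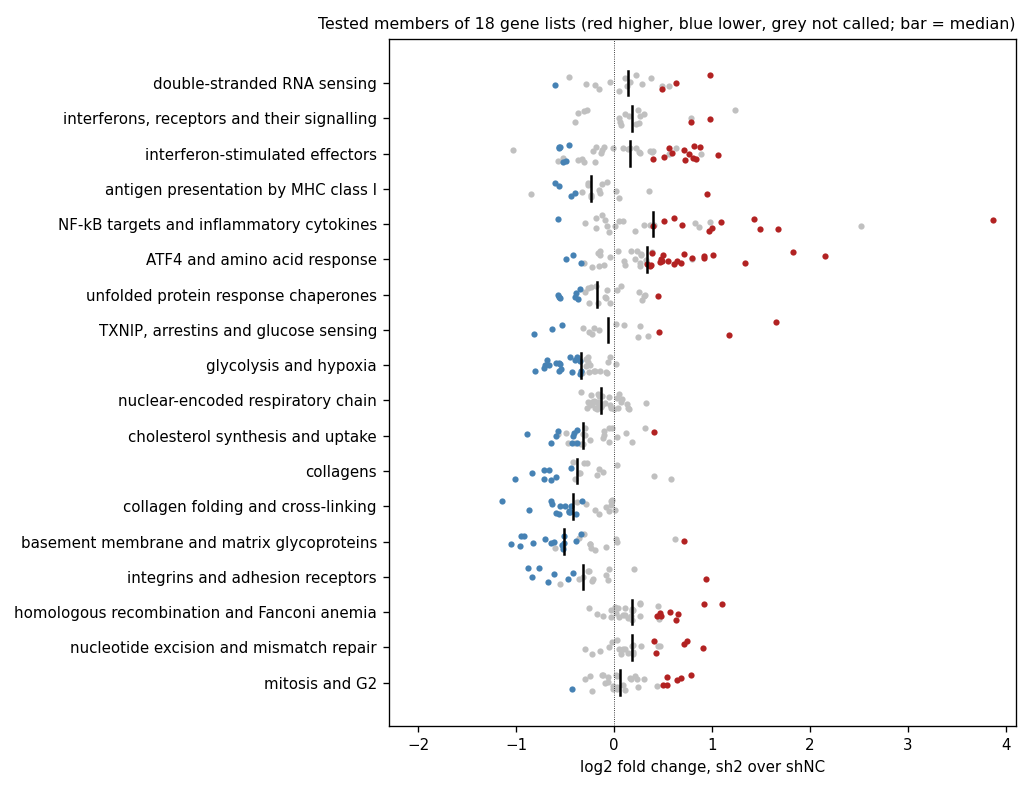
Log2 change of sh2 over shNC for every tested member of 18 gene lists, one point per gene, with red for members called higher, blue for members called lower, grey for members not called and a black bar at the list's median. Medians run from 0.40 for NF-kB targets and 0.34 for the ATF4 list to -0.51 for basement membrane and matrix glycoproteins.

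TXNIP, encoding a protein that binds thioredoxin and restrains glucose uptake, rose 3.15-fold. It lies on chromosome 1, 145992435 to 145996600, minus strand, and was at 882 and 692 CPM in sh2 and 244 and 220 CPM in shNC, 787 ± 134 against 232 ± 17.7 CPM (SD, n = 2 each). The log2 change was 1.66 (SE 0.13, edgeR adjusted p = 2.2e-07). Its relative ARRDC4, an arrestin controlled by the same glucose-responsive factors, was at 49.9 and 40.5 CPM in sh2 and 17.9 and 19.3 CPM in shNC (log2 change 1.17, SE 0.15, edgeR adjusted p = 0.000117). In the same list of 16 tested genes, SLC2A1, the glucose transporter GLUT1, fell, at 806 and 816 CPM in sh2 and 1104 and 1068 CPM in shNC (log2 change -0.53, SE 0.10, edgeR adjusted p = 0.00249). PFKFB4, which makes the activator of phosphofructokinase, was at 61.2 and 71.5 CPM in sh2 and 118 and 99.6 CPM in shNC (log2 change -0.82, SE 0.15, edgeR adjusted p = 0.00161). Hexokinase 2, HK2, was at 530 and 575 CPM in sh2 and 831 and 759 CPM in shNC (log2 change -0.63, SE 0.12). Of the 16 tested genes of the TXNIP list 37.5% were called, against 14.3% of all genes tested. TXNIP, ARRDC4 and PFKFB4 were called without each library in turn, while SLC2A1 and HK2 were not called without sh2 library 1 (edgeR adjusted p = 0.0753 and 0.0656). The list had 3 members higher and 3 lower in all, 2 and 1 without sh2 library 1, 2 and 3 without either shNC library, and 5 and 5 without either sh1 library.

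Glycolytic enzymes and genes induced by hypoxia moved one way where they were called: 17 of 32 were lower and 0 higher, with a median of -0.34. This is 53.1% called, against 14.3% of all genes tested. NDRG1, a hypoxia-induced gene, was at 4631 and 4973 CPM in sh2 and 7165 and 6993 CPM in shNC (log2 change -0.67, SE 0.09, edgeR adjusted p = 0.000164). ENO2, an enolase, was at 242 and 283 CPM in sh2 and 465 and 388 CPM in shNC (log2 change -0.81, SE 0.12, edgeR adjusted p = 0.000348). ALDOC, an aldolase, was at 147 and 145 CPM in sh2 and 225 and 217 CPM in shNC (log2 change -0.70, SE 0.12, edgeR adjusted p = 0.000895). These 3 were called without each library in turn, and the groups did not overlap. LDHA, lactate dehydrogenase A, was not called at 1268 and 1271 CPM in sh2 and 1295 and 1306 CPM in shNC (log2 change -0.14, edgeR adjusted p = 0.338), but was called lower after removal of the GC trend (-0.27, edgeR adjusted p = 0.00754). ADM, another gene of hypoxia, had a log2 change of 0.02. The count of 17 was 3 without sh2 library 1, 9 without sh2 library 2, 13 without shNC library 1, 8 without shNC library 2 and 26 without either sh1 library, with 0 higher in each. After removal of the GC trend it was 24, for a median GC content of 52.8%. Of 32 nuclear genes of the respiratory chain, 0 were called by edgeR, and their median was -0.13. At an unadjusted p under 0.05 edgeR had 1 higher and 3 lower, DESeq2 called 1 lower and limma-voom 0. Other edgeR fits did call members: 1 higher and 7 lower without sh1 library 1, 1 and 5 without sh1 library 2, and 1 and 4 after removal of the GC trend. The genes encoded by mitochondrial DNA had 8 of 13 members lower and 0 higher, among them MT-ND5 at 564 and 560 CPM in sh2 and 851 and 743 CPM in shNC (log2 change -0.61, SE 0.10). Their summed share of reads was 0.777% and 0.726% in sh2 and 0.947% and 0.925% in shNC.

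Lipid synthesis genes were lower in part, with 9 of 30 genes of cholesterol synthesis and uptake lower and 1 higher and a median of -0.32. In that list 33.3% were called, against 14.3% of all genes tested. FASN, fatty acid synthase, was at 480 and 572 CPM in sh2 and 941 and 869 CPM in shNC (log2 change -0.89, SE 0.12, edgeR adjusted p = 0.00019), and its call held without each library in turn. The counts of 1 and 9 were 0 and 1 without sh2 library 1, 0 and 5 without sh2 library 2, 0 and 3 without shNC library 1, 0 and 4 without shNC library 2, and 2 and 19 without either sh1 library. Removal of the GC trend gave 0 and 14.

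Genes of the extracellular matrix were lower in 3 lists. Of 20 tested collagens 8 were lower and 0 higher (median -0.38), of 24 genes that fold, modify or cross-link collagen 14 were lower and 0 higher (median -0.41), and of 27 basement membrane and matrix glycoproteins 14 were lower and 1 higher (median -0.51). The shares called were 40%, 58.3% and 55.6%, against 14.3% of all genes tested. COL5A1 (chromosome 9, 134641774 to 134844843, plus strand), a chain of fibrillar collagen V, was at 1283 and 1452 CPM in sh2 and 2649 and 2462 CPM in shNC, 1368 ± 120 against 2556 ± 133 CPM (SD, n = 2 each), a log2 change of -1.01 (SE 0.10, edgeR adjusted p = 7.21e-06). FKBP9, a prolyl isomerase of the endoplasmic reticulum, was at 106 and 107 CPM in sh2 and 222 and 216 CPM in shNC (log2 change -1.15, SE 0.11, edgeR adjusted p = 6.39e-06). LOXL2, which cross-links collagen, was at 554 and 582 CPM in sh2 and 840 and 807 CPM in shNC (log2 change -0.64, SE 0.12, edgeR adjusted p = 0.00179). HSPG2, encoding perlecan, was at 239 and 269 CPM in sh2 and 513 and 469 CPM in shNC (log2 change -1.06, SE 0.14, edgeR adjusted p = 0.000168). Agrin (AGRN) and the laminin chains LAMB2 and LAMA5 had log2 changes of -0.96, -0.95 and -0.92. In each of these genes the sh2 libraries lay below the shNC libraries, and each was called without each library in turn.

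The exception in the matrix lists was THBS1, thrombospondin 1, which rose, at 151 and 130 CPM in sh2 and 79.8 and 79.6 CPM in shNC (log2 change 0.71, SE 0.12, edgeR adjusted p = 0.000918). It was not called without sh2 library 1 (edgeR adjusted p = 0.0646). Among members not called, the collagen I chain COL1A1 was at 95.9 and 94.0 CPM in sh2 and 97.5 and 98.2 CPM in shNC (log2 change -0.15, edgeR adjusted p = 0.425), and the fibrillin FBN2 at 309 and 318 CPM in sh2 and 316 and 299 CPM in shNC (-0.08, 0.682). Without sh2 library 1 the lower counts were 1 collagen, 2 folding genes and 5 glycoproteins, and without sh2 library 2 they were 7, 7 and 8. They were 5, 8 and 9 without shNC library 1, 4, 6 and 10 without shNC library 2, and 10, 17 and 18 without sh1 library 1. Removal of the GC trend gave 8, 13 and 15 with medians of -0.18, -0.33 and -0.35, while the median GC content of the 3 lists was 60.7%, 55.3% and 50.7%.

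Receptors for the matrix were also lower in part. Of 19 tested integrins and adhesion receptors 7 were lower and 1 higher (42.1% called, against 14.3% of all genes tested), with a median of -0.32. ITGA3, the alpha 3 chain of a laminin receptor, was at 449 and 465 CPM in sh2 and 781 and 775 CPM in shNC (log2 change -0.88, SE 0.12, edgeR adjusted p = 0.00016). ITGB4, a chain of the hemidesmosome integrin, was at 520 and 569 CPM in sh2 and 949 and 858 CPM in shNC (log2 change -0.84, SE 0.13, edgeR adjusted p = 0.000654). The fibronectin receptor chain ITGA5 and the adhesion molecule L1CAM had log2 changes of -0.67 and -0.76. ITGB8, a chain of an integrin that activates TGF-beta, rose, at 12.7 and 10.7 CPM in sh2 and 4.52 and 6.83 CPM in shNC (log2 change 0.94, SE 0.23, edgeR adjusted p = 0.0108). CD44, the hyaluronan receptor, was at 807 and 783 CPM in sh2 and 873 and 902 CPM in shNC and was not called (log2 change -0.27, edgeR adjusted p = 0.076), but it was called lower after removal of the GC trend (-0.36, edgeR adjusted p = 0.000987) and in the fit of the sh2 and shNC libraries alone (0.00227). ITGA3, ITGB4, ITGA5 and L1CAM were called without each library in turn, and ITGB8 was not without sh2 library 1 or shNC library 1 (edgeR adjusted p = 0.105 and 0.163). The counts of 1 and 7 were 0 and 4 without sh2 library 1, 1 and 5 without sh2 library 2 or shNC library 2, 0 and 5 without shNC library 1, and 2 and 12 without either sh1 library. Removal of the GC trend gave 1 and 13.

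Markers of ovarian carcinoma epithelium fell in 5 of 13 tested members and rose in 0 (38.5% called, against 14.3% of all genes tested). FOLR1 (chromosome 11, 72189558 to 72196323, plus strand), folate receptor alpha, was at 735 and 727 CPM in sh2 and 1156 and 1291 CPM in shNC (log2 change -0.85, SE 0.10, edgeR adjusted p = 5.28e-05). MSLN, mesothelin, was at 228 and 233 CPM in sh2 and 348 and 350 CPM in shNC (log2 change -0.70, SE 0.11, edgeR adjusted p = 0.000607). MUC16, which carries the antigen CA125, was at 4.11 and 5.76 CPM in sh2 and 13.04 and 10.01 CPM in shNC (log2 change -1.32, SE 0.22, edgeR adjusted p = 0.000941). MUC1, another mucin, was at 32.6 and 37.5 CPM in sh2 and 86.0 and 75.4 CPM in shNC (log2 change -1.31, SE 0.14, edgeR adjusted p = 9.95e-06), and the tight junction gene CLDN4 was at 18.7 and 19.6 CPM in sh2 and 38.6 and 49.1 CPM in shNC (-1.30, SE 0.16, edgeR adjusted p = 7.05e-05). The groups did not overlap in these 5 genes, and 5 lower members were also counted without sh2 library 1, without either shNC library and after removal of the GC trend. Without sh2 library 2 the count was 6, and without either sh1 library it was 8 lower and 1 higher. The epithelial keratins KRT7 and KRT8, members of the same list, and vimentin (VIM), which marks mesenchymal state, were not called. KRT7 had a log2 change of -0.07 and KRT8 of -0.23. KRT8 was called lower in the fit of the sh2 and shNC libraries alone (edgeR adjusted p = 0.00664). VIM, at 3023 and 2899 CPM in sh2 and 2796 and 2846 CPM in shNC, had a log2 change of -0.04.

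DNA repair genes moved upward in the few that were called. Of 31 tested genes of homologous recombination and the Fanconi pathway 8 were higher and 0 lower (median 0.18), of 23 genes of nucleotide excision and mismatch repair 5 and 0 (median 0.18), and of 13 genes of translesion synthesis 3 and 0 (median 0.24), against 7.23% and 7.04% of all genes. These pathways remove or bypass the DNA adducts that cisplatin forms. BRIP1, a helicase that partners BRCA1, was at 33.6 and 28.1 CPM in sh2 and 13.8 and 12.8 CPM in shNC (log2 change 1.10, SE 0.15, edgeR adjusted p = 0.00019). BRCA2, a mediator of homologous recombination, was at 33.5 and 29.4 CPM in sh2 and 18.3 and 12.7 CPM in shNC (log2 change 0.92, SE 0.18, edgeR adjusted p = 0.0032). ERCC4, a subunit of the nuclease that cuts at cross-links, was at 16.1 and 17.1 CPM in sh2 and 9.495 and 7.00 CPM in shNC (log2 change 0.90, SE 0.17, edgeR adjusted p = 0.00243). BRIP1 was called without each library in turn, and BRCA2 and ERCC4 were not without shNC library 2 (edgeR adjusted p = 0.074 and 0.0775).

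These repair lists were low in GC content, at medians of 42.2%, 43.7% and 40.7% against 48.9% over all genes tested. Low-GC genes were higher as a class. The part of base composition in these lists, and in the mitotic list below, was not tested. After removal of the GC trend the medians of the 3 lists were 0.12, 0.11 and 0.03, and the higher members numbered 3 of 31, 6 of 23 and 2 of 13, with log2 changes of 0.78 for BRIP1, 0.56 for BRCA2 and 0.65 for ERCC4. Without sh2 library 1, sh2 library 2, shNC library 1 and shNC library 2, the recombination count of 8 became 2, 5, 4 and 1, the excision count of 5 became 1, 2, 1 and 0, and the translesion count of 3 became 0, 2, 1 and 1. Without either sh1 library the counts were 12, 9 and 6. Mitotic genes were also low in GC content (45.5%): 6 of 30 were higher and 1 lower, and 4 and 4 after removal of the GC trend. CENPE, a kinetochore motor, was at 90.8 and 81.6 CPM in sh2 and 47.8 and 44.8 CPM in shNC (log2 change 0.79, SE 0.15, edgeR adjusted p = 0.00252), called without each library in turn. MKI67, the proliferation antigen Ki-67, was at 437 and 430 CPM in sh2 and 427 and 362 CPM in shNC (log2 change 0.03, edgeR adjusted p = 0.879). The mitotic counts of 6 and 1 were 2 and 0, 4 and 0, 3 and 0, and 1 and 0 without sh2 library 1, sh2 library 2, shNC library 1 and shNC library 2, and 11 and 4 without either sh1 library.

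Targets of p53 were split, with 5 of 25 tested members higher and 3 lower (32% called, against 14.3% of all genes tested). GADD45A, a stress-induced inhibitor of the cell cycle, was at 173 and 154 CPM in sh2 and 67.2 and 76.0 CPM in shNC (log2 change 1.09, SE 0.12, edgeR adjusted p = 2.88e-05). The kinase gene PLK2 and the death receptor gene FAS had log2 changes of 0.90 and 0.77. The 3 lower were CDKN1A, FDXR and PHLDA3, named after their values were seen. GADD45A was called without each library in turn, PLK2 not without sh2 library 1 (edgeR adjusted p = 0.0726), and FAS not without sh2 library 1 or shNC library 2 (0.0902 and 0.0517). The counts of 5 and 3 were 2 and 0 without sh2 library 1, 5 and 1 without sh2 library 2, 4 and 0 without either shNC library, 6 and 3 without either sh1 library, and 7 and 1 after removal of the GC trend.

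Among platinum transporters 2 of 21 were higher and 2 lower, near the 7.23% and 7.04% of all genes. SLC31A1, the copper transporter through which cisplatin can enter, was at 64.4 and 60.3 CPM in sh2 and 72.6 and 79.6 CPM in shNC (log2 change -0.40, SE 0.12, edgeR adjusted p = 0.0374), but was not called without any 1 of these 4 libraries (0.131 to 0.379) or with the replicate number as a block (0.0545). LRRC8B and LRRC8D, subunits of the volume-regulated anion channel that admits platinum drugs, had log2 changes of 0.91 and 0.45 (edgeR adjusted p = 0.00641 and 0.0297), both lost without sh2 library 1 (0.106 and 0.35) or shNC library 1 (0.0852 and 0.266), and that of LRRC8D also without sh2 library 2 or shNC library 2 (0.0805 and 0.172). The list had 0 and 0 called without sh2 library 1 or shNC library 1, 1 and 1 without sh2 library 2 or shNC library 2, and 4 and 5 without either sh1 library. In the glutathione and NRF2 list 1 of 31 members was higher and 1 lower (6.45% called, against 14.3% of all genes tested). The higher one was GCLM, which encodes the modifier subunit of the enzyme that starts glutathione synthesis, at 57.5 and 47.5 CPM in sh2 and 26.9 and 23.3 CPM in shNC (log2 change 0.96, SE 0.14, edgeR adjusted p = 0.000423), called without each library in turn. Of 9 tested metallothioneins, 0 were called by edgeR, and their median was -0.42. In edgeR 4 were lower at an unadjusted p under 0.05, while DESeq2 called 1 lower and limma-voom 0.

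Growth factor and TGF-beta genes changed in both directions. IGFBP3 and IGFBP4, which bind insulin-like growth factors, were at 800 and 794 CPM and at 453 and 466 CPM in sh2, and at 1353 and 1333 CPM and 759 and 788 CPM in shNC, both with a log2 change of -0.86 (edgeR adjusted p = 2.88e-05 and 0.000164). TGFB1, the ligand TGF-beta 1, was at 368 and 392 CPM in sh2 and 592 and 555 CPM in shNC (log2 change -0.70, SE 0.11, edgeR adjusted p = 0.000483). These 3 were called without each library in turn. Of 31 growth factor genes 4 were higher and 7 lower, and of 27 genes of TGF-beta and activin signalling 6 were higher and 2 lower. The shares called were 35.5% and 29.6%, against 14.3% of all genes tested (7.23% higher and 7.04% lower). Without sh2 library 1, sh2 library 2, shNC library 1 and shNC library 2 the first pair of counts was 0 and 2, 1 and 4, 0 and 4, and 1 and 3, and the second was 2 and 1, 5 and 1, 2 and 1, and 2 and 2. Without either sh1 library they were 6 and 11, and 9 and 3.

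Among the genes with the largest changes outside these lists, MRPL1, a protein of the mitochondrial ribosome, was at 13.5 and 13.1 CPM in sh2 and 4.47 and 3.18 CPM in shNC (log2 change 1.69, SE 0.20, edgeR adjusted p = 5.06e-05). The centromere protein gene CENPU, the cohesion factor ESCO2 and the spindle gene SKA1 had log2 changes of 1.22, 1.18 and 1.22, and the methyltransferase genes PRMT9 and THUMPD2 had changes of 1.30 and 1.21. On the lower side, ANGPTL2, a secreted angiopoietin-like factor, was at 4.31 and 4.32 CPM in sh2 and 10.3 and 11.7 CPM in shNC (log2 change -1.46, SE 0.20, edgeR adjusted p = 0.000164). PLBD2, a lysosomal phospholipase-like protein, was at 31.3 and 30.0 CPM in sh2 and 81.4 and 68.6 CPM in shNC (log2 change -1.40, SE 0.13, edgeR adjusted p = 5.18e-06). AP2M1 (chromosome 3, 184174689 to 184184091, plus strand), the mu subunit of the clathrin adaptor AP-2, was at 190 and 202 CPM in sh2 and 444 and 462 CPM in shNC (log2 change -1.32, SE 0.11, edgeR adjusted p = 1.16e-06). All of these were called without each library in turn and after removal of the GC trend. CENPU and PRIMPOL overlap on opposite strands, as do LRP11 and RAET1E-AS1, and since the strand setting of the counting is not given, their reads cannot be told apart with certainty.

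Noncoding RNAs gave clear changes on both sides. SNHG12, a host of small nucleolar RNAs, was at 46.4 and 45.7 CPM in sh2 and 21.7 and 25.7 CPM in shNC (log2 change 0.85, SE 0.14, edgeR adjusted p = 0.000721). H19, an imprinted RNA, was at 469 and 501 CPM in sh2 and 805 and 824 CPM in shNC (log2 change -0.85, SE 0.11, edgeR adjusted p = 9.57e-05). Both were called without each library in turn. NEAT1, the scaffold of paraspeckles, was at 1464 and 1755 CPM in sh2 and 2284 and 2131 CPM in shNC (log2 change -0.56, SE 0.10, edgeR adjusted p = 0.00137), but not called without sh2 library 1 (edgeR adjusted p = 0.115). Of the 33 cytosolic ribosomal protein genes 1 was called, lower, and 12 without either sh1 library.

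The contrast of the hairpins with each other asks which changes differ between sh2 and sh1, which lowered ADAR less. Of 19044 genes 365 were called (1.92%), 127 higher (0.667%) and 238 lower (1.25%) in sh2, and 12 (0.063%) and 43 (0.226%) changed at least 2-fold. The number called depended strongly on which libraries entered the fit, for a cause that was not tested. With only the sh2 and sh1 libraries fitted it was 192. INHBA, the subunit of activin A, was at 71.1 and 70.6 CPM in sh2, at 29.7 and 24.6 CPM in sh1, and at 40.6 and 39.3 CPM in shNC, so sh2 stood above both other groups and sh1 below shNC (sh2 over sh1 log2 change 1.35, edgeR adjusted p = 2.2e-05). CCN1, a matricellular target of YAP, was at 271 and 260 CPM in sh2, 122 and 144 CPM in sh1, and 141 and 182 CPM in shNC (0.97 over sh1, edgeR adjusted p = 0.000323). EMP1, a membrane protein, was at 119 and 114 CPM in sh2, 55.9 and 58.4 CPM in sh1, and 110 and 103 CPM in shNC (1.00 over sh1). EMC10, of a complex that inserts membrane proteins, was at 112 and 123 CPM in sh2, 63.7 and 53.1 CPM in sh1, and 133 and 141 CPM in shNC (0.98 over sh1). For EMP1 and EMC10 sh1 was the lowest group.

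In other genes the sh2 group was the lowest. PLBD2 was at 31.3 and 30.0 CPM in sh2, 79.1 and 69.2 CPM in sh1, and 81.4 and 68.6 CPM in shNC (sh2 over sh1 log2 change -1.30, edgeR adjusted p = 2.33e-05). AP2M1 was at 190 and 202 CPM in sh2, 426 and 358 CPM in sh1, and 444 and 462 CPM in shNC (-1.03, edgeR adjusted p = 5.28e-05). LRP11, a membrane protein, was at 16.5 and 17.3 CPM in sh2, 33.6 and 34.6 CPM in sh1, and 36.9 and 35.5 CPM in shNC (-1.04). IL27RA, a cytokine receptor, was at 9.45 and 6.98 CPM in sh2, 22.5 and 22.6 CPM in sh1, and 17.1 and 20.5 CPM in shNC (-1.49). For the stress genes no difference between hairpins was called in CTH (0.07 over sh1, SE 0.18, edgeR adjusted p = 0.9), ASNS (-0.18), CHAC1 (-0.41), IFIH1 (0.07) and IRF1 (0.21), which does not show that the hairpins act alike, while CXCL8 and TXNIP were higher with sh2 than with sh1 (0.84 and 0.48, edgeR adjusted p = 0.00936 and 0.0483).

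**Figure D5:**
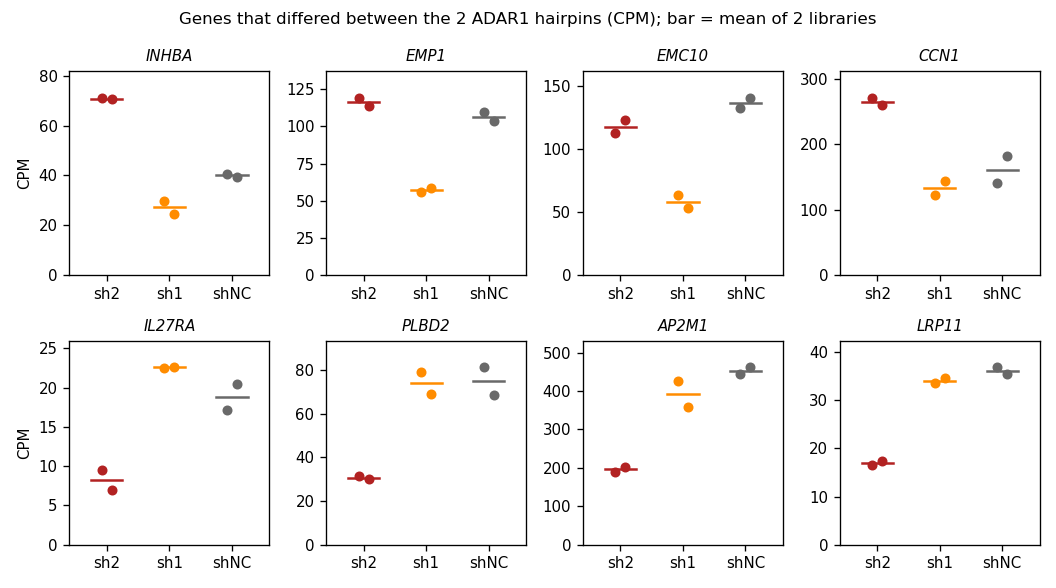
CPM of 8 genes called between the 2 ADAR1 hairpins, one point per library, for sh2, sh1 and shNC, with a bar at the mean of 2 libraries. INHBA and CCN1 are highest in sh2, EMP1 and EMC10 lowest in sh1, and IL27RA, PLBD2, AP2M1 and LRP11 lowest in sh2.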

How the data were processed

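RNA from OVCAR3-derived cells was sequenced in the 6 hairpin libraries (sh2, sh1 and shNC, 2 each) used here. Per the submitters' processing notes, FastQC 0.11.9, STAR 2.7.8a, SAMtools and HTSeq 2.0.3 were named with the build GRCh38.p13. The authors deposited raw read counts per gene for each library, 62757 genes and 5 summary lines. These lines were left out of totals and tests. Annotation release, read layout and strand setting: not given in the sources used here. Reads without molecular identifiers are not independent molecules, so intervals cover counting error only.

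From these counts, CPM were computed on assigned reads (20428538 to 23746370 per library; reads in no annotated feature were 49.5% to 50.0% of the files' totals). Genes were tested with edgeR 4.0.16 (R 4.3.3) by quasi-likelihood tests after filterByExpr (minimum count 10, 19044 genes) and TMM scaling (factors 0.948 to 1.03), in 1 fit of the 6 libraries without a replicate block, with Benjamini-Hochberg adjustment and a threshold of 0.05. Standard errors are the log2 change divided by the square root of F. With 2 libraries against 2, an exact permutation test cannot go below p = 0.333, so none was used. In data simulated for sh2 against shNC on 18621 genes, 62% of 1.5-fold and 99% of 2-fold changes were called and 17 unchanged genes. The simulated counts were drawn independently for each gene and held no GC trend, so these figures do not measure false calls in the deposited counts. Replicate libraries differed by more than sampling noise (chi-square per gene 4.87 for sh2, 5.01 for shNC and 21.1 for sh1), so none was merged.

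Coordinates, types, exon GC content and overlaps come from GENCODE 29 (GRCh38), which held 58318 of the 62757 genes; GC content was available for 95.9% of tested genes. Promoters come from RefSeq GRCh38.p14 for 768 of 994 list members. Of 139 genes named with values, 54 overlap another tested gene. Genes were named by rule: the 15 coding and 4 other genes with the largest change each way among those called with at least 10 CPM in either group, the 6 each way against sh1, and up to 6 called and 3 abundant uncalled members of each list; a few of these are not reported here. The members and the 44 lists were chosen with earlier results of these data known. Alternatives were other scalings (DESeq2 size factors, upper quartile), filters, DESeq2 1.42.0, limma-voom (limma 3.58.1), other sets of libraries, a replicate block, each library left out, and offsets for GC content and length. Figures were drawn with matplotlib.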

Additional observations from a re-analysis of the deposited data

Results flagged for a closer look

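For 37 of the genes named, including ADAR, the change with sh2 differed from that with sh1 by edgeR's test of the contrast between the 2 hairpins (adjusted p under 0.05). All values here are log2 changes of sh2 over sh1.

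ADAR itself was lower with sh2 by -1.27. Genes lower with sh2 by about 1 or more were IL27RA (-1.49), ZNF467 (-1.47), IGFN1 (-1.38), PLBD2 (-1.30), ELK3 (-1.20), CLDN4 (-1.04), LRP11 (-1.04) and AP2M1 (-1.03). ZNF467, a zinc finger gene, was at 3.18 and 4.40 CPM in sh2, 11.1 and 9.56 CPM in sh1, and 5.28 and 5.05 CPM in shNC, so sh1 was the highest group. ELK3, an ETS factor, was at 22.7 and 24.6 CPM in sh2, 47.3 and 59.5 CPM in sh1, and 47.9 and 43.3 CPM in shNC. Smaller values were found for NKAIN4 (-0.91) and MUC1 (-0.76).

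Of the genes named from the matrix, adhesion and editing lists, LAMB2 (-0.78), COL5A1 (-0.62), AGRN (-0.62), LAMA5 (-0.61), HSPG2 (-0.55), ITGA3 (-0.48), ITGA5 (-0.48), FLNA (-0.48) and COL7A1 (-0.46) were lower with sh2, and THBS1 was higher (0.76). The other lower genes were SLC31A1 (-0.62), SLC16A3 (-0.49), HSPA5 (-0.47), CANX (-0.42) and IGFBP3 (-0.42). HSPA5 stood at 6194 and 6107 CPM in sh2, 8209 and 8518 CPM in sh1, and 6133 and 6645 CPM in shNC, so the sh1 libraries were apart from the other 4.

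Higher with sh2 than with sh1 were INHBA (1.35), EMP1 (1.00), EMC10 (0.98), CCN1 (0.97), TENT5C (0.96), CXCL8 (0.84), NDC80 (0.66), KIF11 (0.62), CDK1 (0.59), TXNIP (0.48) and ADM (0.40). Between sh2 and sh1 the median difference ran from 0.17 in the lowest of 10 groups of genes by GC content to -0.19 in the highest. The part of base composition in single genes was not tested.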

How the results depend on the processing

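The fits below keep the direction of ADAR, whose log2 change ranged from -2.01 to -1.93 over the other alternatives and from -2.05 to -1.92 with libraries left out, and it was called in each. The number of genes called between sh2 and shNC was 5874 when only those libraries were fitted, and ranged from 303 to 5859 with each library left out in turn. The number with at least 2-fold change was 94 for genes of at least 5 CPM and 137 by DESeq2's Wald test and 106 to 380 with libraries left out. Genes called between sh2 and sh1 numbered 690 with no filter on low counts, 642 by DESeq2's Wald test, 192 when only those libraries were fitted, 1281 with a GC content offset and 1474 with offsets for GC content and length, and 58 to 4286 with libraries left out. The cause of these shifts was not tested, except that fewer libraries or genes enter some fits.

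Deviations of libraries with the same replicate number were nearly uncorrelated between sh2 and shNC (-0.011) and between sh1 and shNC (0.064), over 12084 genes. Between sh2 and sh1 the correlation was -0.349, so same-numbered libraries of these 2 groups tended to deviate in opposite directions. The cause was not tested. With the number as a replicate block 2590 genes were called between sh2 and shNC and 398 between sh2 and sh1. With the numbers of sh1 crossed, the block gave 3326 and 646.

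Of 111 called genes named with values besides ADAR, 68 kept their call without sh2 library 1, 103 without sh2 library 2, 86 without either shNC library and 108 with the GC offset. Among the 27 named genes not called, 6 gained a call with the GC offset (B2M, CD44, HSPA5, LDHA, SLC3A2 and TNIP1) and 8 without either sh1 library. The uncalled ISG15 changed sign to 0.21, past the threshold, with offsets for GC content and length. Depth limits genes under 1 CPM, of which 0.698% were called higher and 0.73% lower.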

Other observations

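Lysosomal and autophagy genes were lower in 6 of 29 tested members and higher in 1 (24.1% called, against 14.3% of all genes tested). GRN, progranulin, was at 369 and 388 CPM in sh2 and 501 and 504 CPM in shNC (log2 change -0.52), PSAP, prosaposin, at 1040 and 1075 CPM in sh2 and 1316 and 1302 CPM in shNC (-0.41), and the protease gene CTSB at 185 and 196 CPM in sh2 and 245 and 255 CPM in shNC (-0.50). ULK1, the kinase that starts autophagy, had a log2 change of -0.69. All 4 were lost without sh2 library 1 (edgeR adjusted p = 0.143, 0.19, 0.162 and 0.0667), GRN, PSAP and CTSB also without shNC library 2 (0.059, 0.0595 and 0.0942), and PSAP without sh2 library 2 (0.0727). Counts of higher and lower members were 0 and 0, 0 and 3, 0 and 4, and 0 and 1 without sh2 library 1, sh2 library 2, shNC library 1 and shNC library 2, and 3 and 12 or 3 and 10 without sh1 library 1 or 2.

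Of 22 tested genes of RNA splicing 2 were higher and 0 lower (9.09% called, against 14.3% of all genes tested), and 2 and 6 after removal of the GC trend. SRSF7 was at 115 and 103 CPM in sh2 and 57.5 and 55.7 CPM in shNC (log2 change 0.84, SE 0.12, edgeR adjusted p = 0.000241), called without each library in turn. SRSF3, another SR protein gene, was at 260 and 247 CPM in sh2 and 156 and 161 CPM in shNC (0.57), and was not called without sh2 library 1 or shNC library 1 (edgeR adjusted p = 0.0915 and 0.0607), which leaves 1 in each of those fits.

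Of 28 tested Wnt, Notch and hedgehog genes 2 were higher and 2 lower (14.3%, as over all genes tested). The Notch ligand genes JAG1 and JAG2 were among them, JAG1 at 58.7 and 48.2 CPM in sh2 and 31.7 and 32.7 CPM in shNC (log2 change 0.62), and JAG2 at 69.0 and 81.5 CPM in sh2 and 98.8 and 98.7 CPM in shNC (-0.50). The Notch targets HES1 and HEY1 had log2 changes of 0.55 and -0.50. All 4 were lost without sh2 library 1 (edgeR adjusted p = 0.203, 0.319, 0.131 and 0.319 in this order of naming), shNC library 1 (0.0911, 0.106, 0.0649 and 0.189) or shNC library 2 (0.0571, 0.139, 0.112 and 0.11), JAG2 also after removal of the GC trend (0.0904), and HEY1 without sh2 library 2 (0.0519). In this list 0 were called without sh2 library 1 or either shNC library and 3 higher and 6 lower without either sh1 library.

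The list of epithelial and mesenchymal state had 3 of 22 members higher and 4 lower, and 0 higher without sh2 library 1 or shNC library 1. The mesenchymal marker S100A4 was at 241 and 251 CPM in sh2 and 340 and 376 CPM in shNC (log2 change -0.65, edgeR adjusted p = 0.000895), while SNAI2, a repressor of epithelial genes, was at 44.3 and 43.9 CPM in sh2 and 24.9 and 25.6 CPM in shNC (0.70, edgeR adjusted p = 0.00247), lost without sh2 library 1 or shNC library 1 (0.0512 and 0.0591). CCNE2 and CDC25A, genes of entry into S phase, were higher with log2 changes of 0.73 and 0.62. Both calls were lost without sh2 library 1 or either shNC library, and that of CDC25A also without sh2 library 2. Their list had 5 of 30 members higher and 0 lower (16.7% called, against 14.3% of all genes tested). That count was 0, 2, 1 and 0 without sh2 library 1, sh2 library 2, shNC library 1 and shNC library 2, and 11 without either sh1 library. YAP and TEAD targets had 2 of 21 higher and 1 lower (14.3%, as over all genes tested), with 0 and 0 without sh2 library 1 or shNC library 1 and 5 and 5 without either sh1 library. The BCL2 family and apoptosis list had 3 of 24 higher and 1 lower (16.7% called, against 14.3% of all genes tested). Fewer were called without sh2 library 1 and more without either sh1 library. Replication histones had 1 of 19 higher and 2 lower (15.8% called), nuclear long noncoding RNAs 3 of 14 and 3 (42.9%), and neural markers 0 of 6 and 1 (16.7%). The higher histone was H4C14 (log2 change 1.14), whose reads may be split with near-identical copies.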
